A study of Drosophila melanogaster with 3 samples.

Results

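Distal binding sites of the CG16863 protein on the X chromosome are described here. They are the 426 reproducible ChIP-seq peaks on X whose summit lay more than 500 bp from every annotated transcription start site (TSS), whether in an intron, in an exon or between genes. They were taken from 3953 reproducible peaks in all, of which 750 were on X and 1968 were distal. The other reproducible peaks were 324 promoter peaks on X (summit within 500 bp of a TSS), 1542 autosomal distal peaks and 1661 autosomal promoter peaks. No measured binding strength entered the rule beyond the authors' choice of the reproducible set by irreproducible discovery rate (IDR).

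The data came from whole Drosophila melanogaster embryos aged 0 to 16 h, with males and females pooled. The embryos belonged to a transgenic line that carries CG16863 with eGFP, a green fluorescent protein, fused to its C-terminal end, and the chromatin was precipitated with an antibody against GFP. All 3 samples were biological replicates of this single group, so no contrast between groups exists, and every embryo carried the tagged protein. Peaks of a control library were not analysed here, and background enrichment at these sites cannot be told apart from binding of the tagged protein.

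In flies, males carry a single X chromosome and raise its transcription through the dosage compensation complex, which contains the noncoding RNAs roX1 and roX2 and spreads over active X genes. A pool of male and female embryos therefore holds fewer copies of X than of each autosome, and the effect of this on the peak lists was not tested. Distal binding sites often fall in enhancers, stretches of DNA that act on a promoter from a distance, and in compact fly genomes many of these lie inside introns.

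The sequences around the strongest sites show what the best bound DNA on X looked like. Each line gives the summit base of 1 of the 9 best-ranked distal peaks with 50 bases on either side, on the forward strand of dm6, under the gene whose TSS was closest. Capitals mark runs of at least 6 letters that are only A or T.
CG32772, chrX:4910350-4910450: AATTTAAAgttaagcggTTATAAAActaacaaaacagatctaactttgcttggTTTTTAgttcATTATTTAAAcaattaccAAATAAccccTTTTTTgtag
Tlk, chrX:3742184-3742284: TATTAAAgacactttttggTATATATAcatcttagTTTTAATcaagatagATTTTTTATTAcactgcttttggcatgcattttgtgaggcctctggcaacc
Raf, chrX:2297675-2297775: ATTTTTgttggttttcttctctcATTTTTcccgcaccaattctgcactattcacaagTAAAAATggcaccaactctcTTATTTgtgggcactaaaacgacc
CG3726, chrX:5918859-5918959: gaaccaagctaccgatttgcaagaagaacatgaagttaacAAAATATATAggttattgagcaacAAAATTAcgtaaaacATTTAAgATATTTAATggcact
NFAT, chrX:13640463-13640563: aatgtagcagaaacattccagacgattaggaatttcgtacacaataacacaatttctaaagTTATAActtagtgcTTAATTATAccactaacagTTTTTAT
LPCAT, chrX:9579246-9579346: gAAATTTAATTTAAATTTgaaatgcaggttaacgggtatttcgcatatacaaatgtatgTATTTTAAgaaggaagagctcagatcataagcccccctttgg
asRNA:CR44512, chrX:19668559-19668659: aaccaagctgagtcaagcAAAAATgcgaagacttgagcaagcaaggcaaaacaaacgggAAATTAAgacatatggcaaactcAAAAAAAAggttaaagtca
norpA, chrX:4324943-4325043: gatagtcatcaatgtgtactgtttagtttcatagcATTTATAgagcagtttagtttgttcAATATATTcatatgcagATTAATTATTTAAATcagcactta
lncRNA:CR42794, chrX:5696482-5696582: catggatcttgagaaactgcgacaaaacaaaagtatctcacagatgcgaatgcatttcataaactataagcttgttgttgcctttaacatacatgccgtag
In the 8 windows other than that of lncRNA:CR42794, A/T runs of 6 or more letters were present, and the longest had 17 letters, at LPCAT. The lncRNA:CR42794 window, from the only intergenic site among the 10 best, held none, its longest A/T run being 5 letters. The GC content of these windows ran from 25.7% at CG32772 to 38.6% at Raf.

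Peak height is given as relative signal, which is the authors' signal value in a replicate divided by that replicate's median over all reproducible peaks, so that 1 is the height of a typical reproducible peak. The highest distal site on X lay in the first intron of CG32772 (FBgn0052772; chrX:4910191-4910570), 1298 bp from the TSS, with relative signals of 8.11, 7.43 and 7.51 in replicates 1, 2 and 3 (7.68 ± 0.371; SD, n = 3). In the first intron of Tlk (FBgn0283657; chrX:3742027-3742403), which encodes the Tousled-like kinase, values were 6.96, 7.38 and 7.10 (7.15 ± 0.211; SD, n = 3). The replicate ranges of these sites did not overlap, although the lowest CG32772 value was only slightly above the highest of Tlk.

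Raf, the kinase that carries the signal from Ras to the MAP kinase cascade, held the next site (FBgn0003079; chrX:2297553-2297877). It reached 5.70, 6.22 and 7.53 (6.48 ± 0.941; SD, n = 3), the widest spread among the 25 best-ranked sites, and overlapped the range of Tlk. Next came CG3726 (FBgn0029824; chrX:5918745-5919076) with 6.00, 5.92 and 6.50. The peak at NFAT (FBgn0030505; chrX:13640353-13640708), the gene of a Rel-family transcription factor, had 5.76, 5.93 and 5.90. LPCAT (FBgn0052699; chrX:9579145-9579461), the gene of a lysophospholipid acyltransferase, had 5.81, 5.69 and 5.63. Neighbours from Raf to LPCAT overlapped in their ranges, and these 6 sites were the members above 5 in every replicate.

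A step down lay a site in the first intron of Zw, the glucose-6-phosphate dehydrogenase gene, whose nearest TSS was that of asRNA:CR44512 (5.08 ± 0.260; SD, n = 3). Other metabolic or signalling genes with a strong site in their first intron were norpA, the phospholipase C of phototransduction (4.42 ± 0.192), schlank, a ceramide synthase gene (4.03 ± 0.185), and pico, an adaptor of the lamellipodin family (3.69 ± 0.465; SD, n = 3 for each). The strongest site between genes lay 591 bp from lncRNA:CR42794 and had 4.25, 4.07 and 4.90. A second one, 628 bp from CG12643, had 2.97, 2.46 and 3.55. Farther down were sites in mnb, the minibrain kinase gene (3.26 ± 0.280), in Pits (3.24 ± 0.320) and in N, which encodes the Notch receptor (3.06 ± 0.350; SD, n = 3 for each). The site in N lay 10617 bp from the nearest TSS, that of CG18508, the largest distance among the 25 best-ranked sites.

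**Figure D1:**
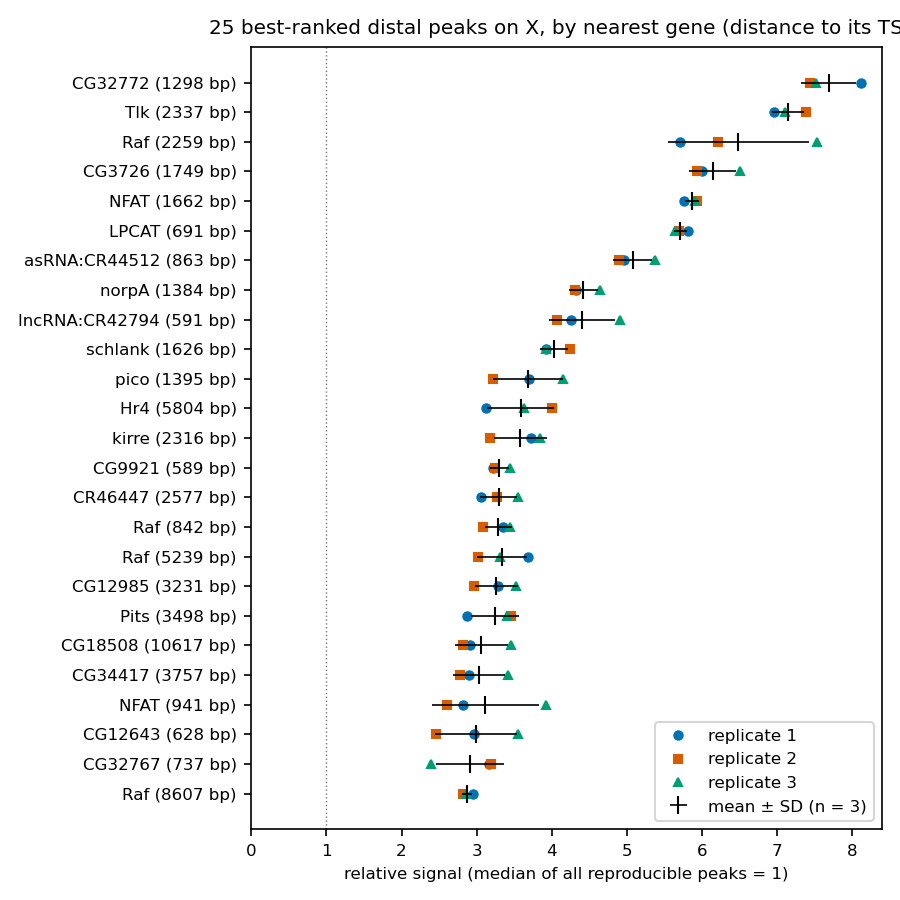
Relative signal (x axis, 1 is the median of all reproducible peaks) of the 25 best-ranked distal peaks on X, each named by the nearest gene with its TSS distance in bp. Coloured points are replicates and black marks are mean ± SD over 3 replicates. CG32772 lies highest at 7.68, and all 25 sites exceed 2 in every replicate.

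Most of the 426 sites were much lower. Their mean relative signal had a median of 0.892, quartiles of 0.707 and 1.43, and a range from 0.236 to 7.68. A replicate without a summit within 100 bp counted as 0, which affected 28 sites, so a low mean can reflect a missing summit. In every replicate, 142 sites were above 1, 42 above 2 and 17 above 3, while 170 were below 1 throughout. None of the sites approached the strongest peaks of the genome. Among the 100 best-ranked reproducible peaks, 7 were distal X peaks and 23 were autosomal distal peaks. Over all 3953 reproducible peaks these classes numbered 426 and 1542. The best distal X peak ranked 36.

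The reproducible set was chosen by agreement between these same replicates, so the agreement of their summits at the sites is described only. A replicate summit lay within 100 bp of 98.1, 98.1 and 97.2% of the sites (97.8% ± 0.542; SD, n = 3), against 96.8% ± 0.613 for autosomal distal peaks, and 28 sites lacked one in at least 1 replicate. Across the sites, Spearman's rho between pairs of replicates ranged from 0.702 to 0.730, which describes sites measured in the same libraries. Among the 3953 strongest summits of each replicate, 263 sites (61.7%) were found in all 3.

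At the typical site, X and autosomes did not separate. The median relative signal of the distal X peaks was 0.911, 0.921 and 0.949 in the replicates, and that of autosomal distal peaks was 0.938, 0.962 and 0.906. The X median was lower in replicates 1 and 2 and higher in replicate 3, with a mean difference of -0.0084 ± 0.0449 (SD, n = 3; exact two-sided sign-flip permutation test over replicates, p = 1). For promoter peaks the X median exceeded the autosomal one in 3 of 3 replicates, by 0.0203 ± 0.00786 (SD, n = 3; same exact test, p = 0.25). With 3 replicates, 0.25 is the smallest p this test can give, so no comparison below could pass a threshold of 0.05. The distal difference minus the promoter difference was -0.0287 ± 0.0380 (SD, n = 3; exact permutation p = 0.5). Because all these peaks passed a minimum of pooled signal, their heights are values above a floor.

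**Figure D2:**
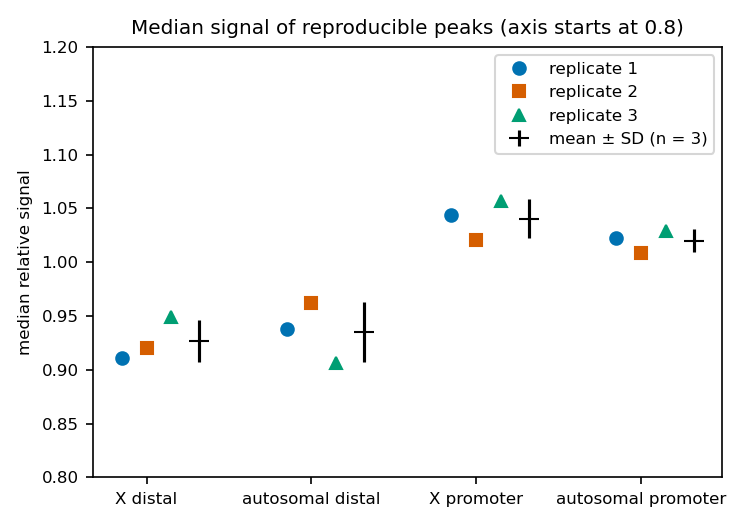
Median relative signal (y axis, starting at 0.8) of the 426 distal X, 1542 autosomal distal, 324 X promoter and 1661 autosomal promoter peaks. Coloured points are replicates and black bars are mean ± SD over 3 replicates. Points of the distal classes overlap between X and autosomes, around 0.927 on X and 0.935 on autosomes.

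X held a larger part of the distal peaks than of the promoter peaks. Of the distal reproducible peaks 21.6% lay on X (95% Wilson interval 19.9 to 23.5), against 16.3% of the promoter peaks (14.8 to 18.0). These intervals cover counting error only, and neighbouring peaks are not independent. In the strongest 3953 peaks of replicates 1, 2 and 3, the X share of distal peaks was 21.1, 20.9 and 21.8%, and that of promoter peaks 16.9, 15.8 and 16.7%. The difference was 4.81 ± 0.538 percentage points (SD, n = 3; exact sign-flip permutation p = 0.25) and positive in 3 of 3 replicates. From the other side, 56.8% of X peaks were distal (53.2 to 60.3), and 45.3 to 52.2% of the peaks on the 4 large autosomal arms.

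The surplus appeared at the step from relaxed to reproducible peaks. The authors' relaxed pooled list, which keeps weak calls, had 111 distal summits per Mb on X and 120 per Mb on the autosomes, so X was not richer there. Reproducible distal peaks were denser on X, at 18.1 per Mb against 14.0. Of 2623 relaxed distal summits on X, 16.2% were in the reproducible set, against 11.6% of 13258 on the autosomes. For promoters these shares were 26.4% on X and 25.7% on the autosomes. Each large autosomal arm gave a distal share between 11.5 and 11.8%, so X stood outside their range.

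The replicate lists showed the same order, but the same libraries made the pooled list and the reproducible set. The replicate values are therefore not independent of the pooled result. Of the relaxed distal summits on X, 15.3, 12.0 and 12.2% in replicates 1, 2 and 3 were among that replicate's 3953 strongest, and on the autosomes 10.6, 9.17 and 8.29%. The difference between X and autosomes was 3.84 ± 0.913 percentage points for distal and 0.771 ± 0.837 for promoter summits (SD, n = 3). The distal difference exceeded the promoter difference by 3.42, 3.06 and 2.71 points (exact sign-flip permutation p = 0.25). The median signal of all relaxed distal summits was nearly equal, with an X to autosome ratio of 1.01 ± 0.00961 (SD, n = 3).

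**Figure D3:**
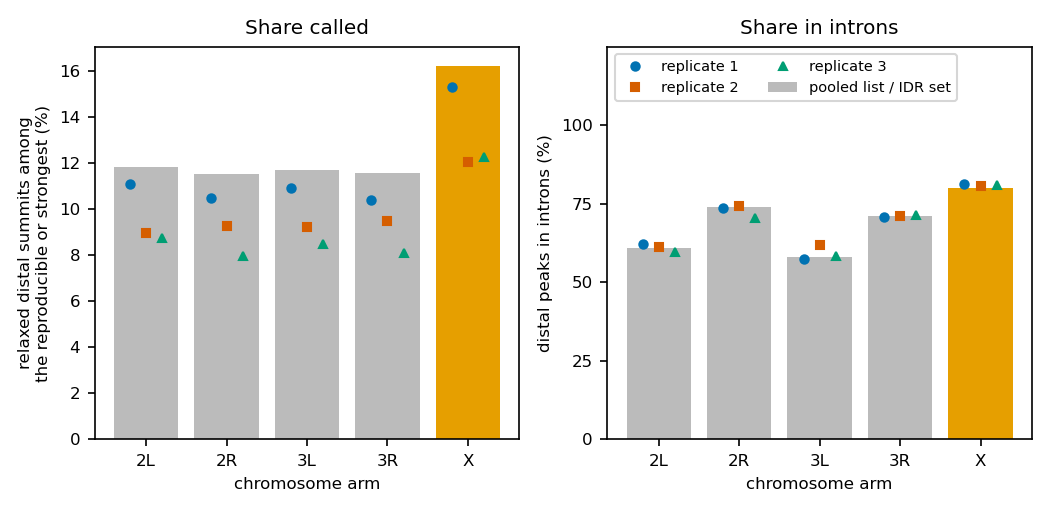
Left, share (%) of relaxed distal summits that belong to the reproducible set (bars, pooled list) or to the strongest 3953 peaks of a replicate (points), by chromosome arm. Right, share (%) of distal peaks in introns, in the reproducible set (bars) and in the strongest peaks of each replicate (points). X, in orange, is highest in both panels, at 16.2 and 80.0%; chromosome 4, with 7 distal peaks, is left out.

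Introns held most of the distal sites on X. Of the 426 sites, 341 were intronic (80.0%; 95% Wilson interval 76.0 to 83.6), 60 lay between genes (14.1%; 11.1 to 17.7) and 25 in exons, comprising 11 in 3′ UTRs, 7 in 5′ UTRs, 5 in other noncoding exons and 2 in coding exons. The sites in coding exons were in bif, with a mean relative signal of 1.01 ± 0.208, and in Ubr1, with 0.777 ± 0.107 (SD, n = 3). On the autosomes 65.6% of distal peaks were intronic (63.2 to 67.9) and 29.3% intergenic. In the strongest peaks of the replicates, the intron share was higher on X by 16.0, 13.8 and 16.3 percentage points (15.4 ± 1.39; SD, n = 3; exact sign-flip permutation p = 0.25).

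A gap in the same direction was present in the annotation and in the relaxed summits. Among distal positions sampled every 100 bp, 49.6% on X and 44.8% on the autosomes were intronic, a gap of 4.80 points. By arm, 3R was level with X at 49.8%, and 2L, 2R and 3L had 42.4 to 42.9%. Among relaxed distal summits over 1000 bp from every reproducible summit, 56.9% on X and 46.7% on the autosomes were intronic, a gap of 10.2 points. Autosomal arms varied too, from 58.2% of distal peaks in introns on 3L to 73.9% on 2R. In every replicate the X share, between 80.6 and 81.5%, was above that of each arm. Coding exons held 0.469% of the sites, against 20.8% of the relaxed distal summits and 15.1% of distal positions on X. The autosomes were alike, with 0.389% of distal peaks, 22.0% of relaxed distal summits and 15.1% of distal positions.

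**Figure D4:**
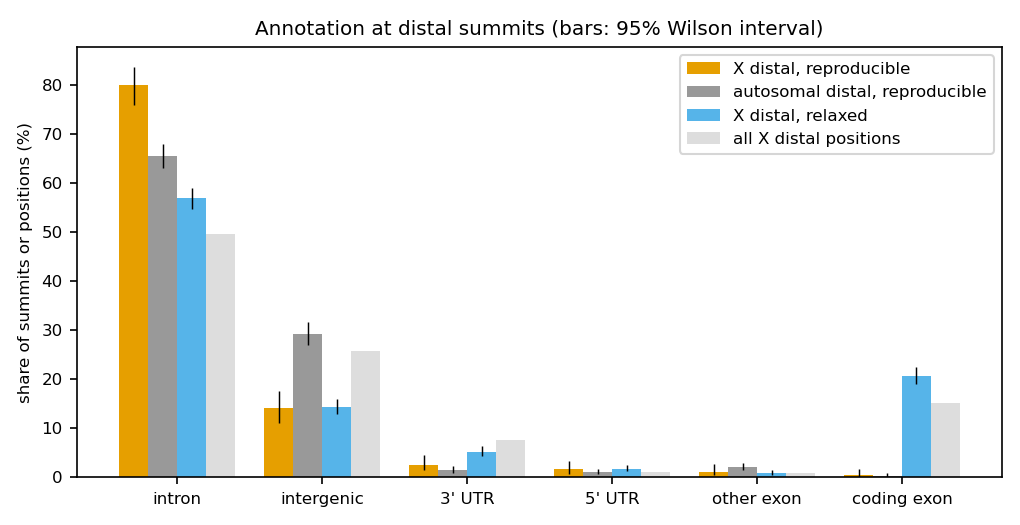
Share (%) of distal summits or positions in each annotation class, for the 426 reproducible X peaks, 1542 autosomal ones, 1993 relaxed X summits away from them and distal X positions sampled every 100 bp. Error bars are 95% Wilson intervals. Introns reach 80.0% of the X sites, and coding exons fall from 20.8% of relaxed summits to 0.469%.

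First introns often carry regulatory elements in flies. Of the 341 intronic sites, 219 (64.2%; 59.0 to 69.1) fell in an intron that is the first of at least 1 transcript of any overlapping gene. On the autosomes the share was higher, at 72.9% (70.1 to 75.5). The share over all distal intron positions or relaxed summits was not counted, so enrichment in first introns was not tested. Sites upstream of their nearest TSS made up 35.9% on X (31.5 to 40.6) and 43.8% on the autosomes (41.4 to 46.3).

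The distance from start sites was alike on X and autosomes in the reproducible set, with medians of 2492 and 2496 bp, and 43.2% of the X sites lay within 2000 bp. In the strongest peaks of the replicates the X median was longer by 266, 10 and 260 bp (179 ± 146; SD, n = 3; exact sign-flip permutation p = 0.25), so the sign depended on the peak set. The most remote site lay 42326 bp from the TSS of mamo, a zinc finger gene, in an intron of the same gene, and had a low mean relative signal of 0.706. Next came a site 41335 bp from Diedel3 in an intron of CG43759 (0.802) and one 36653 bp from the TSS of kirre (0.841).

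Sites nearer to a TSS were higher. Members within 2000 bp had median relative signals of 1.01, 1.02 and 1.04, and members over 5000 bp away 0.834, 0.869 and 0.886, so the groups' medians did not overlap. The difference was 0.159 ± 0.0131 (SD, n = 3; exact sign-flip permutation p = 0.25). On the autosomes it was 0.104 ± 0.0387, and the gap between them, 0.0548 ± 0.0510, was positive in 3 of 3 replicates.

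Intronic members were higher than intergenic ones, with medians of 0.916, 0.959 and 1.00 against 0.838, 0.840 and 0.817. Their difference was 0.127 ± 0.0524 on X and 0.0109 ± 0.0273 on the autosomes. The X difference exceeded the autosomal one in 3 of 3 replicates, by 0.116 ± 0.0746 (SD, n = 3; exact sign-flip permutation p = 0.25). Intergenic members also lay farther from a TSS, at a median of 3211 bp against 2370 bp for intronic ones, and the part of distance in this difference was not tested.

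**Figure D5:**
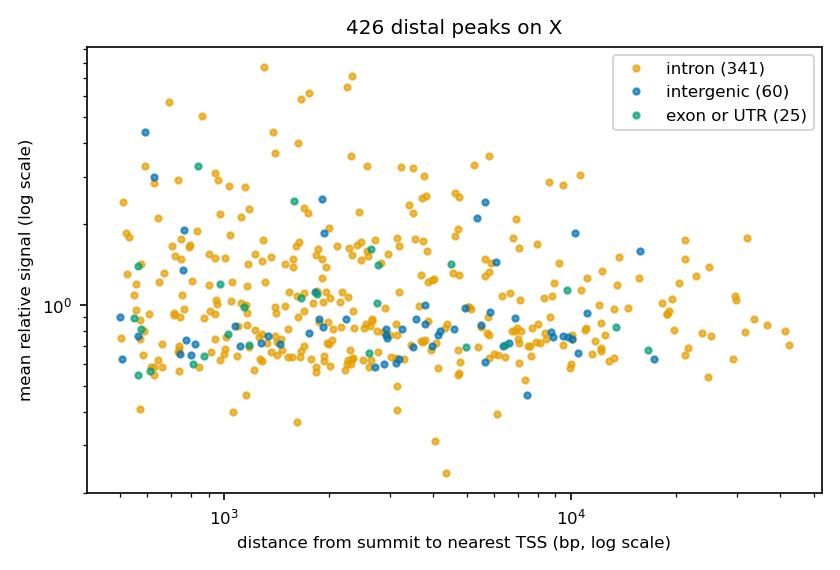
Mean relative signal (y axis, log scale) of the 426 distal X peaks against the distance from the summit to the nearest TSS (x axis, bp, log scale), coloured by annotation. The 10 highest points all lie within 2500 bp of a TSS.

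The rule's edge gives a scale for these distances. Just inside it were a site 501 bp from peb (mean relative signal 0.900), 1 at 502 bp from CG9981 (0.752) and 1 at 508 bp from Hsc70-3 (0.631). Just outside were peaks 494 bp from CG17896 (4.15), 492 bp from ph-p (11.7) and 489 bp from CG4615 (2.17), so the strongest X peak near the limit counts as a promoter peak. On the signal side the reproducible set began at a pooled signal of 108.6, with members at 108.6 (nearest gene be), 108.7 (lncRNA:CR43962) and 108.7 (RunxA), and excluded distal X peaks at 108.1 (kdn), 107.2 (RhoGAP19D) and 106.9 (Lamtor5).

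Some of the sites lay close together. With neighbours joined when within 5000 bp, 170 sites (39.9%) formed 67 runs, although the median gap between neighbouring sites was 22745 bp. Runs were not counted for autosomal distal peaks or relaxed summits, so whether the sites were closer together than those was not tested. The longest run had 9 sites over 11775 bp, 8 of them in the body of Raf, with mean relative signals from 0.823 to 6.48, and 1 between genes just upstream of Raf, with 0.739. Runs of 5 were in Hr4, in CHES-1-like and in the overlapping genes lncRNA:CR44357 and CG1677. By 1 Mb bins, 37 sites fell between 3 and 4 Mb and 36 between 7 and 8 Mb, against a median of 19, and 2 fell between 22 and 23 Mb.

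A few long genes carried many sites. The body of lncRNA:CR44357 (239347 bp) held 17, and the overlapping CG1677 held 14 of the same region. kirre (394149 bp), an immunoglobulin-type adhesion gene of muscle founder cells, held 13, of which the best had 3.72, 3.18 and 3.84. Raf held 11 in 48405 bp. CHES-1-like, a forkhead factor gene, and Hr4, a nuclear receptor gene of the ecdysone response, held 8 each; the best sites reached 2.51 ± 0.326 in CHES-1-like and 3.59 ± 0.445 in Hr4 (SD, n = 3). Without the sites in lncRNA:CR44357, CG1677, kirre, Raf and CHES-1-like (49 sites), the X share of distal peaks was 19.6%. No autosomal gene body was left out, so this share is lower by construction.

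A gene was counted as carrying a site when a site lay in its body or had its TSS as the nearest. This held for 328 of 2813 X genes (11.7%) and for 282 of 2196 protein-coding ones (12.8%). Among X genes longer than 20000 bp it was 111 of 210 (52.9%). The median gene length of a list is given beside some of the counts that follow, and its part in them was not tested. The gene lists were chosen with earlier results of these data known. They include kirre, Raf, Hr4 and CHES-1-like, which held many sites, so the counts may partly restate that choice and are described only.

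Adhesion and cytoskeleton genes had sites in 9 of 14. The best were in kirre, in sn, the fascin gene, with 1.22, 1.56 and 1.54, and in rg, with 0.943, 1.00 and 1.25. Other members of the list were at or below a typical peak, among them Nrg, an L1-type adhesion molecule (0.899 ± 0.153), and if, the integrin alpha PS2 gene (0.851 ± 0.0465; SD, n = 3). The median length of the list's genes was 34522 bp.

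Transcription factor genes had sites in 9 of 17, of median length 23313 bp. Besides Hr4 and CHES-1-like, the best was in Smr, a corepressor gene, with 2.40, 2.65 and 2.52. The homeobox gene ct carried 3 sites and Mnt, the gene of a Myc antagonist, carried 6. No site was assigned to sd, lz, B-H1, B-H2, usp, hang, disco or vnd.

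The list of signalling kinases and phosphatases also holds genes of other classes, namely upd1, upd2, upd3, dome and fs(1)h. Of its 12 X genes, 4 had sites. Besides Raf these were sgg, the GSK3 kinase gene, with 1.30, 1.34 and 1.86, the BET-family gene fs(1)h with 1.78, 1.28 and 1.37, and Ptp10D, a receptor tyrosine phosphatase gene with 4 sites, the best at 1.21 ± 0.178 (SD, n = 3). Proneural and neural genes had sites in 3 of 10, namely N, elav (1.42 ± 0.0854) and the T-box gene bi (0.946 ± 0.0723; SD, n = 3). Segmentation and head genes had them in 2 of 8, sgg and the homeobox gene oc, whose best site lay between genes with 1.70, 1.47 and 1.60.

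Polycomb and chromatin genes had sites in 2 of 6, the neighbouring ph-p (1.54 ± 0.131) and ph-d (1.90 ± 0.0631; SD, n = 3). These are near-identical copies, so the assignment of reads between them is uncertain. Classical visible marker genes had them in 2 of 12, ct and sn. Ion channel and synapse genes had none in 7 (95% Wilson upper bound 35.4%), although their median length was 21373 bp.

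Among 8 X-linked genes of dosage compensation and sex determination, 1 had a site. It was Sxl, the switch gene of sex determination, with 1.53, 0.915 and 1.21 at a site 1312 bp from a TSS. The nearest distal site to roX1 was 18441 bp away and that to roX2 30138 bp. A reproducible peak lay 21 bp beyond the annotated end of roX2, but its summit was 319 bp from the TSS of nod and it counts as a promoter peak.

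The DNA at the sites was rich in A and T. The median GC content of the windows of 50 bases on either side of the summit was 33.7% at the X sites and 33.7% at autosomal distal peaks, compared with 42.6% at relaxed distal X summits and 42.5% over the whole X chromosome. The windows of CG32772, Tlk, CG3726, LPCAT and norpA above hold an A/T run of at least 10 letters. Such a run was present in 44.8% of the X windows, 43.7% of autosomal distal windows and 29.9% of relaxed X windows. X promoter peaks were close to the X sites, with a median GC content of 35.6% and such a run in 43.5% of windows. Relaxed X summits also differed in annotation, with 20.8% in coding exons against 0.469% of the sites. The part of annotation in these gaps was not tested.

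Of 14 motifs searched on both strands, AAAAAAAA gave the widest gap between X and autosomes. It was in 10.3% of the X windows (7.78 to 13.6) and 7.20% of the autosomal ones (6.01 to 8.60), and these intervals overlapped. The share was 9.26% on 3L, near that of X, and 6.18 to 6.65% on 2L, 2R and 3R. In the replicates' strongest peaks X was higher than the autosomes by 4.96, 4.30 and 3.39 percentage points (4.22 ± 0.790; SD, n = 3; exact sign-flip permutation p = 0.25). Relaxed distal summits showed a similar gap, with 9.23% on X and 4.57% on the autosomes. TAATTA, the core that many homeodomains bind, was in 8.45% of X windows, 8.11% of autosomal ones and 4.87% of relaxed X windows. GAGAGAG, the repeat bound by GAGA factor, was in 1.41% of X windows and 1.62% of autosomal ones. TATCGATA, bound by DREF, was in 0.469% of the distal X windows and 4.63% of the X promoter windows (2.83 to 7.50).

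The other motifs were in 0.235 to 5.40% of the X windows. They were CAGGTAG, the site of the early activator Zelda, GATAAG, the site of GATA factors, AGGTGTGA, the site of T-box factors, TGACTCA, the site of AP-1, and GCCATNTT, the core of Pho sites. The E-boxes CAGCTG as well as CACATG, the repeat CACACAC, the promoter element GGTCACAC and the CpG-rich CGCGCG made up the rest. Motifs with the same sign of difference in the reproducible set and in all 3 replicates numbered 5, all higher on X: AAAAAAAA, then the Zelda site, the DREF site, the T-box site and the E-box CACATG. The Zelda, DREF and T-box sites were each in at most 4 X windows. The excess of the E-box CACATG was 1.32 percentage points in the reproducible set and 0.171 without replicate 1, and among the stronger peaks it was 0.247, with 1 of 3 replicates positive. The excess of the Zelda site was 0.615 points, and 0.00639 when the windows reached 100 bases on either side. For GATAAG the difference was 0.600 points in the reproducible set but negative in 3 of 3 replicates. The same held for CAGCTG (0.00365) and CGCGCG (0.0402). Of the 10 8-mers most enriched at autosomal distal peaks, 7 were more frequent in the X windows than in relaxed X windows, with ratios from 0.624 to 3.60, each from 7 windows or fewer.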

How the data were processed

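Peak lists deposited by the authors on dm6 were used: a relaxed list per replicate, a relaxed pooled list and the IDR set. Their columns hold a signal value and a −log10 q value per peak, both as deposited by the authors; the q value was used only to check the lists. Fragments were 200 to 800 bp, per the labels. The aligner, the peak caller and its settings were not given in the sources used here. Sequencing depth is unknown, so no counting error of a height can be given. The distal rule, TSS and annotation classes came from Ensembl release 115 (BDGP6.54, dm6 coordinates, 18164 genes, transposable elements left out), and sequences from the RefSeq copy of the same assembly. Each replicate's signal at a peak was that of its highest relaxed summit within 100 bp, taken as 0 where none was found. Replicates were compared through their 3953 strongest peaks, which are not independent of the reproducible set made from the same libraries. Each value was tested with an exact two-sided sign-flip permutation test over 3 replicates. Spread between replicates may include technical spread. Shares carry 95% Wilson intervals. 8-mers were chosen on autosomes with a prior of 0.5 and a minimum of 1% of windows.

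Peaks named are the 25 best by mean rank over the replicates, up to 3 per gene list, the 5 genes with the most sites, roX1, roX2 and the edges of the rule. The coding-exon sites were named after their values were seen. The members, lists and tests were chosen with earlier results of these data known, and the count of motifs with 1 sign was defined after seeing the lists. The statistics were checked on simulated data. Python 3.11.15, pandas 2.3.3, NumPy 2.4.6 and SciPy 1.17.1 were used. Alternatives covered the TSS distance, a stricter peak set, the summit match, the signal scale, the window, the build and each replicate.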

Additional observations from a re-analysis of the deposited data

How the results depend on the processing

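No paired analysis was possible because the series has a single group, so no samples pair across groups; X and autosomes were compared within each replicate. The X share of distal peaks stayed above the X share of promoter peaks with both other TSS distances, among the stronger peaks and with each replicate left out, and the intron share stayed higher on X in every alternative run, whereas the small differences in signal and TSS distance changed sign. With a TSS distance of 200 bp, the X minus autosomal difference was 0.0188 in distal signal, -0.0216 in promoter signal, 11.2 points in intron share and 42.0 bp in TSS distance. With 1000 bp, the X share of distal peaks was 22.2% and the TSS difference -384 bp. Among peaks at or above the median pooled signal, the differences were 0.0466 in distal signal, 0.0118 in promoter signal, 19.7 points in intron share and 66.0 bp; 99.0% of X sites had a replicate summit, 177 X genes had a site and 24 runs remained. A replicate summit within 50 bp gave a distal signal difference of 0.00630 and was found at 87.6% of sites; within 200 bp the promoter difference was 0.00999 and the share 99.6%. Runs within 2000 bp numbered 44. On percentile ranks, a different unit, the distal difference was -1.03 and the promoter difference 1.62 percentile points. Leaving out each replicate (peaks shared by the others), the X share of distal peaks was 22.0 to 22.7% and the intron difference 14.1 to 16.7 points. The TSS difference was then 21.5 to 182 bp, and the count of motifs with 1 sign 8 to 9, which fewer lists make easier by construction. The distal signal difference, taken over the full reproducible set with a replicate's values left out, was -0.0339 to 0.00829 (positive without replicate 1 or 2). Chosen after seeing the data, leaving out the 5 gene bodies with the most sites gave an X share of 19.6% and an intron difference of 12.4 points. No autosomal gene body was left out, so this share is lower by construction. Also chosen after seeing the data, distal positions or relaxed summits in place of peaks gave intron differences of 4.80 and 10.2 points. On dm3, X held 19.0% of all reproducible peaks, as on dm6.

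Single motif differences (X minus autosomal, percentage points) also changed sign. With 1000 bp these were GGTCACAC (-0.166), TGACTCA (-0.0800) and CGCGCG (-0.166). Among the stronger peaks they were TAATTA (-0.251), CAGCTG (-0.879) and CGCGCG (-0.140). In windows of 100 bases on either side they were GAGAGAG (1.32), CACACAC (2.39), GATAAG (-1.17) and CGCGCG (-0.349). With a replicate left out they were CACACAC (-0.0653 to 0.635), GCCATNTT (-0.991 to -0.0542), CAGCTG (-0.789 to -0.619), CGCGCG (-0.378 to -0.182), GGTCACAC (-0.0981 to 0.144) and TGACTCA (-0.0181 to 0.531). For AAAAAAAA the difference kept its sign throughout, from 2.28 to 6.67. The causes of these changes were not tested. Depth per library is unknown. Every reproducible peak passed the pooled minimum that defined the set, so weaker sites on X were outside the comparisons of relative signal.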
